A study of Macaca fascicularis with 11 samples.

Results

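COL1A1 (ENSMFAG00000033990), COL3A1 (ENSMFAG00000003702) and COL6A2 (ENSMFAG00000031451) are 3 collagen genes chosen by name from the 19367 genes counted in single cells of cultured cynomolgus monkey embryos. Each was found by its Ensembl identifier, and all 3 were present in the count matrix. COL1A1 encodes a chain of type I collagen, which pairs with the chain from COL1A2, and COL3A1 encodes the chain of type III collagen. Both are fibrillar collagens, whose chains wind into long helices that assemble outside the cell into banded fibres. COL6A2 encodes a chain of type VI collagen, which joins the chains from COL6A1 and COL6A3 and forms fine beaded microfibrils in the matrix around cells. Mesenchymal cells are the usual makers of these proteins, and in the primate embryo the extraembryonic mesenchyme (ExE-Mech) is a loose tissue that lines the cavity around the embryo and fills the stalk.

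The embryos were cultured in vitro to Day 10, Day 12 or Day 14 and were either wild type or ISL1 mutant. The mutants came from zygotes injected with Cas9 and guide RNAs against ISL1, a transcription factor gene, so that they were not a line, were mosaic by the study's genotyping of cells and are described as hypomorphic. Wild-type libraries numbered 2 at each day, and mutant libraries numbered 1 at Day 10 and 2 each at Day 12 and Day 14. A library pooled 1 to 3 embryos, and the 11 libraries came from 12 wild-type and 11 mutant embryos. Replicates were separate batches of embryos, numbered in the labels, and whether a number stands for the same batch in both genotypes is not stated.

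Per library, between 325 and 9625 cells and between 36654977 and 164808415 unique molecular identifiers (UMIs, counted transcript molecules) were kept. Median depth per cell ranged from 24720 to 142180 UMIs over the wild-type libraries and from 10916 to 99406 UMIs over the mutant libraries, and between 2 and 67 cell barcodes of a library recurred in another. Cells were grouped into ExE-Mech-like, endoderm-like, trophoblast-like and Epi-derived (epiblast and its derivatives) classes from marker genes that included no collagen. The summed level of the 8 ExE-Mech markers was 2634 to 4562 CPM (UMIs of the gene per 1000000 UMIs of the class in that library) in ExE-Mech-like cells, against 419 to 696 CPM in endoderm-like and 15.1 to 65.1 CPM in trophoblast-like cells. ISL1 stood at 96.1 to 147 CPM in the amnion-like cells of wild-type libraries and at 31.4 to 180 CPM in those of mutant ones. It was among the 9 amnion markers that named these cells, so its level there is not independent of the naming. RNA counts do not show which copies carried an edit. Reads came from the 3′ end of transcripts, and no length scaling was applied, so levels are compared between cells and libraries and not between genes.

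All 3 collagens stood higher in ExE-Mech-like cells than in each other class present, in each of the 8 libraries that held such cells. Wild-type Day 12 replicate 2, among these 8, held no endoderm-like cells. COL1A1 in ExE-Mech-like cells exceeded the next class by 3.45-fold to 26.3-fold, with a median of 15.1-fold. COL3A1 exceeded the next class by 5.45-fold to 858-fold, with a median of 93.4-fold. The 858-fold, in mutant Day 10, was against 4 UMIs in trophoblast-like cells, and the next highest was 290-fold. The 5.45-fold was against the 10 endoderm-like cells of mutant Day 14 replicate 2, and the next lowest was 29.4-fold. COL6A2 exceeded the next class by 6.09-fold to 33.0-fold, with a median of 7.14-fold. The 33.0-fold was that of wild-type Day 12 replicate 2, and the next highest was 9.95-fold. ExE-Mech-like cells were 5.16% to 26.8% of the cells of these libraries, and they held 92.4% to 98.9% of the COL3A1 UMIs, 56.6% to 95.2% of the COL1A1 UMIs and 63.2% to 91.4% of the COL6A2 UMIs. These levels describe genes that are known ExE-Mech markers in the study's own tables, so no test was made of the order of the classes.

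**Figure D1:**
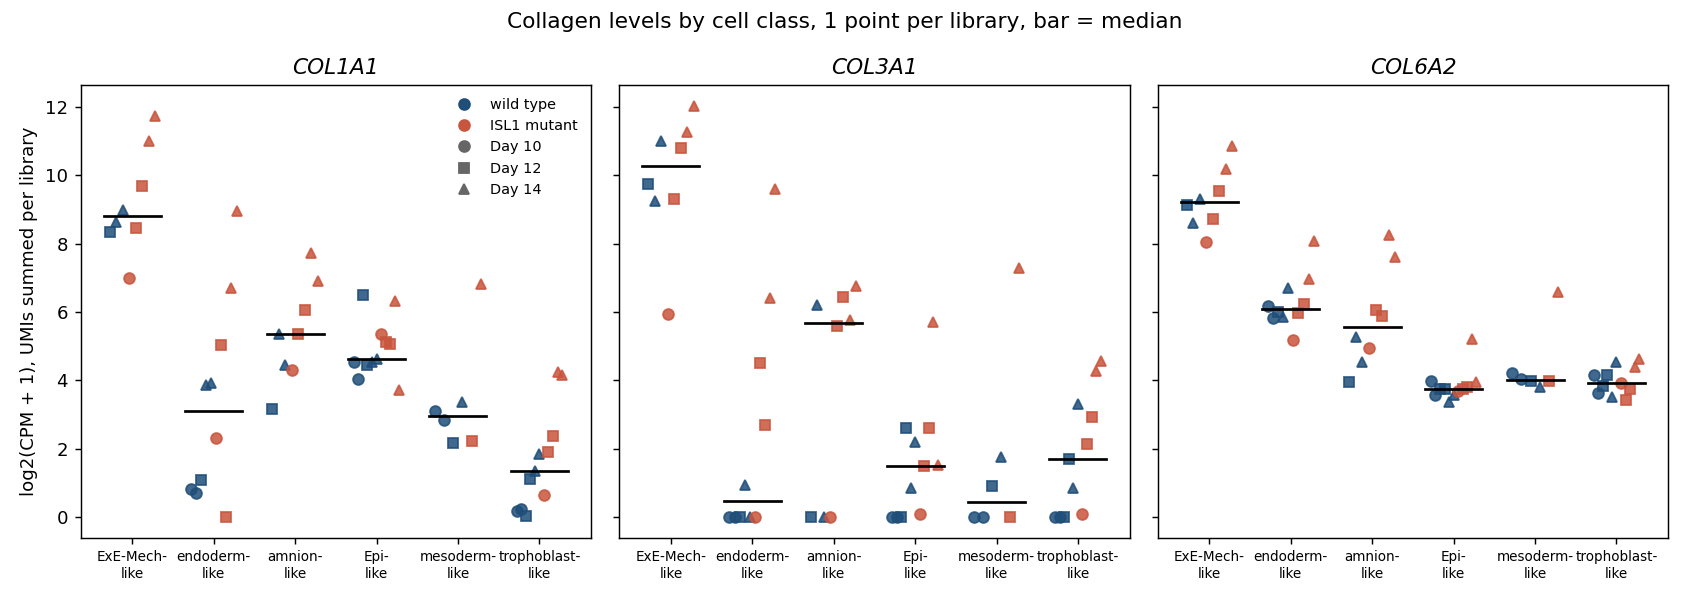
Levels of COL1A1, COL3A1 and COL6A2 by cell class, as log2(CPM + 1) of UMIs summed per library. Each point is a library with at least 5 cells of the class, colour marks the genotype, the symbol marks the day and the bar is the median. Within each library ExE-Mech-like cells lie on top for each gene, but the lowest ExE-Mech-like points, those of mutant Day 10, lie below the highest points of the endoderm-like class. COL3A1 falls to 0 in several classes, and COL6A2 stays above 9.8 CPM in all trophoblast-like sums.

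Outside ExE-Mech-like cells the 3 genes were found in different places. In the 3 wild-type libraries without ExE-Mech-like cells, both of Day 10 and replicate 1 of Day 12, COL3A1 gave 0 UMIs among 1653 cells, which allows a level of up to 0.0188 CPM. COL1A1 gave 702 UMIs in the same cells, and 96.4% and 97.3% of the COL1A1 UMIs of the Day 10 libraries lay in Epi-derived cells. COL6A2 gave 2515 UMIs there, and between 52.4% and 77.0% of them in each library lay in trophoblast-like cells. COL1A1 UMIs in these libraries therefore lay mainly in the epiblast lineage, and COL6A2 UMIs were spread over the lineages.

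Among Epi-derived cells, COL1A1 was found in Epi-like cells, which resemble the pluripotent epiblast. It stood at 22.3 and 15.5 CPM in the Epi-like cells of the Day 10 wild-type libraries and at 88.5 CPM in the 14 Epi-like cells of Day 12 replicate 1. Mesoderm-like cells of the Day 10 wild-type libraries held 7.53 and 6.20 CPM, and trophoblast-like cells 0.135 and 0.186 CPM. Over all 11 libraries, COL1A1 in Epi-like cells lay between 12.1 and 88.5 CPM with a median of 23.6 CPM. It was not particular to them among Epi-derived cells. In amnion-like cells it lay between 8.00 and 211 CPM, with a median of 40.1 CPM over 8 libraries. Over wild-type libraries alone the median was 20.9 CPM in amnion-like and 22.3 CPM in Epi-like cells. The summed ExE-Mech markers in the Epi-like cells of the Day 10 wild-type libraries were 9.36 and 11.5 CPM.

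By the median over libraries, COL6A2 was highest in endoderm-like cells among the classes other than ExE-Mech-like. It stood at 35.0 to 266 CPM there, with a median of 67.2 CPM over 10 libraries, and at 71.4 and 55.6 CPM in the Day 10 wild-type libraries. Trophoblast-like cells held 9.80 to 23.6 CPM of COL6A2 with a median of 14.1 CPM, and Epi-derived cells held 11.6 to 156 CPM with a median of 14.3 CPM. These ranges of trophoblast-like and Epi-derived cells overlap, so the order of the lower classes is not resolved for COL6A2.

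COL3A1 had a second range only in libraries that held ExE-Mech-like cells. In trophoblast-like cells it was at 0 CPM in the 3 wild-type libraries without ExE-Mech-like cells and at 0.0700 to 22.7 CPM in the other 8. In those 8 libraries the ratio of COL1A1 to COL3A1 UMIs in trophoblast-like cells was 0.912 to 3.90 times the ExE-Mech-like ratio of the same library, and the ratio of COL6A2 to COL3A1 was 2.35 to 46.1 times as high. Both upper ends were those of mutant Day 10, where the trophoblast-like cells held 4 COL3A1 UMIs. The authors' ambient RNA correction removed 56.9% of the COL3A1 UMIs in the trophoblast-like cells of mutant Day 12 replicate 2, the highest share for this class. It removed at most 3.08% of those in ExE-Mech-like cells of any library. In Epi-like cells it took COL3A1 from 22 to 3 UMIs in mutant Day 14 replicate 2 and from 30 to 12 in mutant Day 12 replicate 2. The part of ambient RNA in the UMIs that remained was not tested.

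In ExE-Mech-like cells, all 3 collagens were higher in both mutant Day 14 libraries than in both wild-type Day 14 libraries. COL1A1 stood at 398 and 502 CPM in wild type and at 2055 and 3388 CPM in the mutant. COL3A1 stood at 611 and 2039 CPM in wild type and at 2480 and 4205 CPM in the mutant, so that wild-type replicate 2 lay close below mutant replicate 1. COL6A2 stood at 384 and 627 CPM in wild type and at 1153 and 1834 CPM in the mutant. Such an order, both mutant libraries above both wild-type libraries, held for 25.3% of the 14079 genes compared in this class, so 3 of 3 members is a description of these libraries.

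At Day 12 only replicate 2 of the wild type held ExE-Mech-like cells. COL1A1 stood at 322 CPM in that library and at 354 and 828 CPM in the mutant libraries. COL3A1 stood at 865 CPM in wild type and at 635 and 1787 CPM in the mutant, and COL6A2 at 562 CPM in wild type and at 421 and 745 CPM in the mutant. The wild-type value lay between those of the mutant libraries for COL3A1 and COL6A2 and below both for COL1A1.

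**Figure D2:**
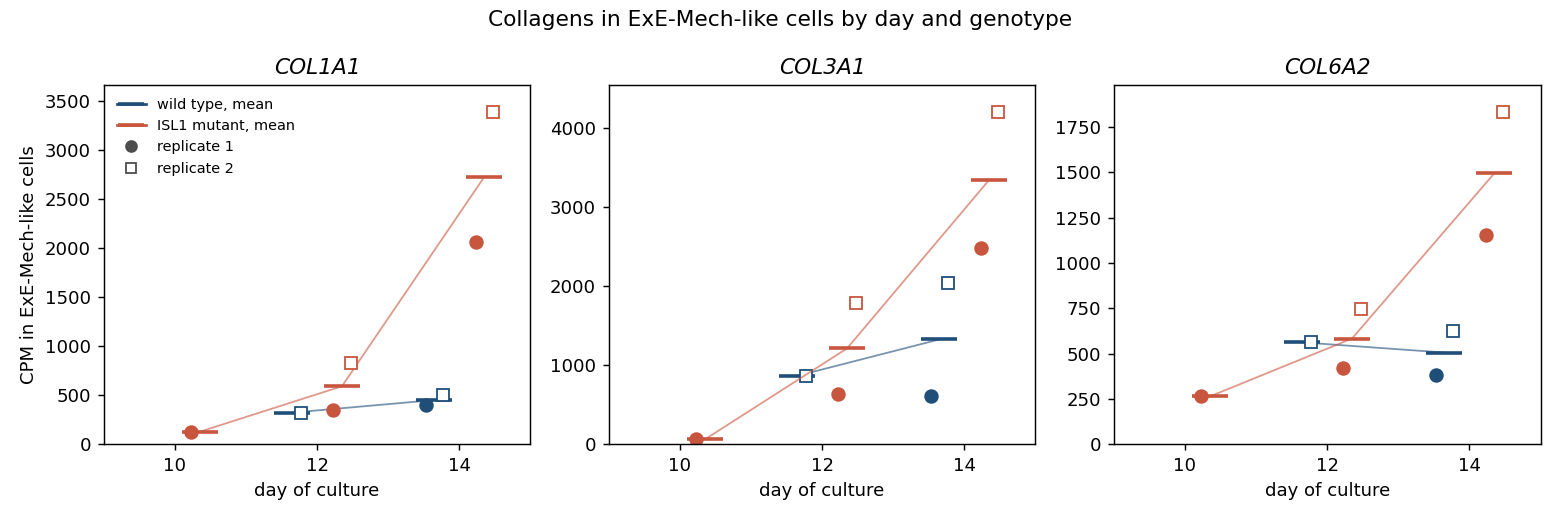
CPM of the 3 collagens in ExE-Mech-like cells by day of culture and genotype, on linear axes that start at 0. Filled circles are replicate 1, open squares are replicate 2, short bars are group means and lines join the means of a genotype. The Day 14 mutant libraries sit at 2055 and 3388 CPM for COL1A1, above the wild-type libraries at 398 and 502 CPM.

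No member passed the test of genotype in ExE-Mech-like cells, which took the mean of the Day 12 and Day 14 differences over 8 libraries. COL1A1 had a log2 difference of 1.83, higher in the mutant (standard error 0.41, edgeR adjusted p = 0.199). COL3A1 differed by 1.01 (standard error 0.56, edgeR adjusted p = 0.414) and COL6A2 by 0.90 (standard error 0.34, edgeR adjusted p = 0.285). Of 12841 genes, 0 (0%) passed by edgeR, against 2047 at an unadjusted p under 0.05 and 473 by DESeq2, by which COL1A1 passed (adjusted p = 9.56e-05); with the batch number as a term the edgeR count was 5. At Day 14 alone the log2 differences were 2.71 for COL1A1 (edgeR adjusted p = 0.154), 1.47 for COL3A1 and 1.68 for COL6A2. Within the same replicate number at Day 14 the mutant exceeded wild type by 5.16-fold and 6.74-fold for COL1A1, by 4.06-fold and 2.06-fold for COL3A1 and by 3.00-fold and 2.93-fold for COL6A2. COL1A1 also passed without the filter on low counts (edgeR adjusted p = 0.0162). With a library left out in turn, none of the 3 passed, and the log2 differences ran from 1.43 to 2.69 for COL1A1, from 0.52 to 1.51 for COL3A1 and from 0.64 to 1.66 for COL6A2. Without wild-type Day 12 replicate 2, no wild-type library was left at Day 12, and the difference was that at Day 14 alone. The median ExE-Mech-like cell held 53641 and 19700 UMIs in the wild-type Day 14 libraries and 10034 and 18849 UMIs in the mutant ones. The summed ExE-Mech markers were 2836 to 3725 CPM in wild type and 2634 to 2738 CPM in the mutant. The summed endoderm markers were 154 to 186 CPM in wild type and 200 to 226 CPM in the mutant, and the amnion markers 22.6 to 40.7 CPM and 54.3 to 82.2 CPM. Other lists were lower in the mutant, the Epi markers at 28.5 to 44.3 CPM in wild type and 15.8 to 21.3 CPM in the mutant. The Epi-derived markers were at 252 to 312 CPM and 200 to 207 CPM. The part of depth and of these lists in the collagen levels was not tested.

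Mutant Day 10 was the only Day 10 library with ExE-Mech-like cells, 66 in number, and the balance of the 3 genes there differed from later libraries. COL1A1 stood at 127 CPM, COL3A1 at 60.1 CPM and COL6A2 at 263 CPM, each the lowest of the 8 libraries. The ratio of COL1A1 to COL3A1 UMIs was 2.12 in this library, against a median of 0.604 over the 8. COL3A1 was at 0 in 37 of the 66 cells, COL1A1 in 10 and COL6A2 in 2, at a median depth of 95221 UMIs per cell, the deepest ExE-Mech-like cells of the series. Of the marker lists of other classes, those of endoderm, Epi-derived, Epi and amnion were highest there. The summed endoderm markers were at 2314 CPM against 130 to 765 CPM over the other 7 libraries in this class. The Epi-derived markers were at 663 CPM against 200 to 630 CPM, and the Epi markers at 208 CPM against 15.8 to 53.7 CPM. The amnion markers were at 129 CPM against 19.7 to 82.2 CPM, and the part of these lists in the balance was not tested. No test was made of the mutant Day 10 library, which stood alone in its group.

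Single ExE-Mech-like cells mostly carried all 3 collagens together. UMIs of all 3 were found in 40.9% of the ExE-Mech-like cells of mutant Day 10 and in 87.8% to 98.5% of those of the other 7 libraries. In trophoblast-like cells, in which COL3A1 is not known as a marker, 0% to 9.73% of cells had a COL3A1 UMI, at median depths of 11401 to 143737 UMIs against 10034 to 95221 UMIs in ExE-Mech-like cells. Across the ExE-Mech-like cells of a library, Pearson's r between COL1A1 and COL3A1 was 0.23 to 0.83, with the highest in mutant Day 14 replicate 2 (1039 cells). These correlations are over cells of the same library, which differ in depth and are not replicates. Pearson's r of a cell's level with its depth ran from -0.25 to 0.33 for COL1A1 and from -0.30 to 0.31 for COL3A1. The lowest values were in mutant Day 14 replicate 1 and the highest in wild-type Day 14 replicate 1. The part of depth in the correlations was not tested.

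The mutant Day 14 libraries also held a wide spread between groups of ExE-Mech-like cells. In mutant Day 14 replicate 1, COL1A1 ran from 472 CPM in a cluster of 54 cells to 5076 CPM in a cluster of 830 cells. The 830 cells had a median of 6741 UMIs, against 13098 UMIs in the largest cluster, of 1059 cells, where COL1A1 stood at 892 CPM. Wild-type Day 14 replicate 2 divided likewise, into 219 cells with 745 CPM and 120 cells with 123 CPM of COL1A1. The clusters were built without collagen genes, and their levels are given as a description. Of the naming markers of ExE-Mech, 0 were among the 10 leading genes of 3 of the 4 ExE-Mech-like clusters of mutant Day 14 replicate 1, which held 1343 of its 2402 cells, and of all 5 clusters of replicate 2, whereas each cluster of the wild-type Day 14 libraries had 1 to 4. These clusters took their name from marker levels and had no marker of another class among their leading genes, and the part of this difference in the collagen levels was not tested. Collagen genes were not left out of the ranking of leading genes, so the count of leading markers is not independent of the collagen levels.

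**Figure D3:**
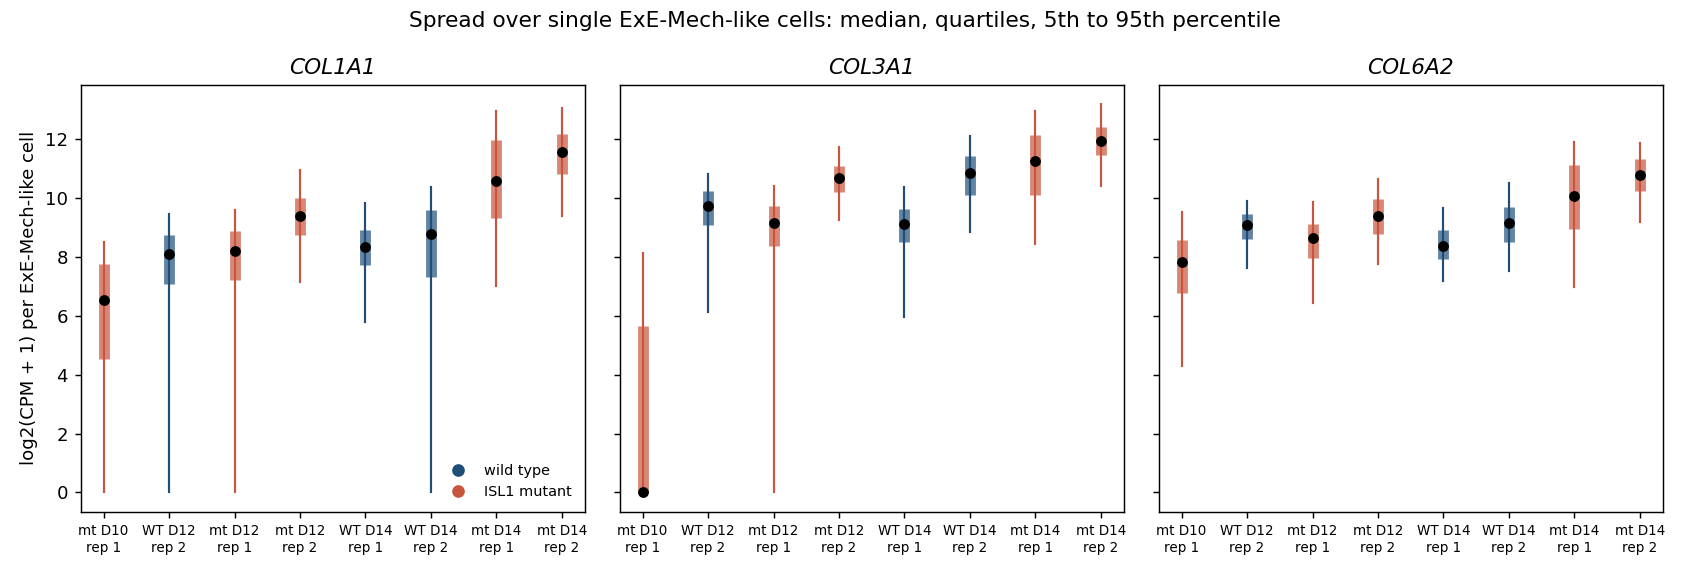
Spread of each collagen over single ExE-Mech-like cells in the 8 libraries, as log2(CPM + 1) per cell, with the median as a point, the quartiles as a box and the 5th to 95th percentile as a line. Mutant Day 10 has a COL3A1 median of 0, and both mutant Day 14 libraries have the highest medians for each gene.

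In Epi-derived cells, COL3A1 and COL6A2 were higher in the mutant and passed the test. COL3A1 stood at 4.52 and 2.99 CPM in the wild-type Day 14 libraries and at 76.0 and 42.7 CPM in the mutant ones. At Day 12 it stood at 0 and 2.98 CPM in wild type and at 6.45 and 34.7 CPM in the mutant, so the groups did not overlap at either day, and at Day 12 the mutant libraries were both on top for 23.6% of 13192 genes. COL6A2 stood at 12.0 and 11.6 CPM in wild type and at 156 and 84.6 CPM in the mutant at Day 14, and at 12.6 and 13.4 CPM against 17.6 and 29.8 CPM at Day 12. COL1A1 stood at 15.1 and 29.2 CPM in wild type and at 158 and 54.0 CPM in the mutant at Day 14, but at Day 12 the highest value was the 88.5 CPM of wild-type replicate 1, from 14 cells.

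On the log2 scale, over both days, COL3A1 was 3.62 higher in mutant Epi-derived cells (standard error 0.62, edgeR adjusted p = 0.0273). COL6A2 was 2.09 higher (standard error 0.26, edgeR adjusted p = 0.0115), and COL1A1 differed by 0.89 (standard error 0.52, edgeR adjusted p = 0.318). With single libraries left out, COL3A1 ran from 2.84 without mutant Day 12 replicate 2 to 7.30 without wild-type Day 12 replicate 2, where the wild-type Day 12 library that remained held 0 COL3A1 UMIs, and COL6A2 from 1.89 to 2.25. At Day 12 alone neither passed (COL3A1 at 3.33, edgeR adjusted p = 0.389, and COL6A2 at 0.82, edgeR adjusted p = 0.520). In this comparison 506 of 12402 genes passed (4.08%), 357 of them higher in the mutant (2.88%), and 2 of 3 members were among the latter. Both mutant Day 14 libraries lay above both wild-type ones for all 3 members, and for 28.5% of 13864 genes. Leaving out wild-type Day 14 replicate 2 ended both calls (edgeR adjusted p = 0.0702 for COL3A1 and 0.0565 for COL6A2) and cut the 506 calls to 16. The COL3A1 call was also lost without wild-type Day 14 replicate 1 (0.0654), mutant Day 12 replicate 2 (0.0778), mutant Day 14 replicate 1 (0.0737) or mutant Day 14 replicate 2 (0.0711) by the same edgeR test, with counts of 126, 19, 30 and 27 genes, while without wild-type Day 12 replicate 1 COL1A1 passed (1.83, edgeR adjusted p = 0.0360), as it did without the filter on low counts (0.91, edgeR adjusted p = 0.0250).

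The Epi-derived class was not of one make-up. Amnion-like cells were 6.79% and 32.1% of it in the wild-type Day 14 libraries and 42.0% and 59.8% in the mutant ones. Mesoderm-like cells were 45.5% and 0% against 6.35% and 0%. These shares depended on the clustering. With clusters built from all libraries of a day, amnion-like cells were 40 of 568 and 85 of 112 Epi-derived cells in wild type. In the mutant they were 249 of 495 and 52 of 92, so that wild-type replicate 2 had the highest share. The summed ExE-Mech markers in Epi-derived cells were 45.8 to 104 CPM in wild type and 157 to 217 CPM in the mutant at Day 14, with up to 2 of the 8 markers at 0 in a wild-type library and none in the mutant ones. The summed level of the 10 trophoblast markers was 103 to 256 CPM in wild type and 465 to 1408 CPM in the mutant, with none at 0. With cells that held UMIs of 3 or more ExE-Mech or trophoblast markers (mixed cells) left out, COL3A1 was 3.42 higher and no longer passed (edgeR adjusted p = 0.0843). The part of the make-up and of ExE-Mech or trophoblast RNA in these differences was not tested.

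Within the Epi-like cells alone the Day 14 levels overlapped between genotypes for COL1A1 and not for COL6A2. COL6A2 stood at 9.35 and 10.9 CPM in wild type and at 36.1 and 14.6 CPM in the mutant, an order shown by 22.7% of 11890 genes. The 10.9 CPM rested on 6 UMIs, with an exact Poisson range of 3.99 to 23.7 CPM for counting error alone that takes in the 14.6 CPM of mutant replicate 2. COL1A1 stood at 22.4 and 23.6 CPM in wild type and at 79.8 and 12.1 CPM in the mutant. COL3A1 stood at 0.822 and 3.63 CPM in wild type and at 50.8 and 1.91 CPM in the mutant. The COL3A1 values of wild-type replicate 2 and mutant replicate 2 rested on 2 and 3 UMIs, so no order between them is read. On corrected counts COL1A1 was highest in mutant replicate 1 and lowest in mutant replicate 2, and no test was made in this class. In mutant replicate 2 the ambient RNA correction took COL1A1 from 40 to 19 UMIs, COL3A1 from 22 to 3 and COL6A2 from 46 to 23. It left the 13, 2 and 6 UMIs of wild-type replicate 2 unchanged. The place of mutant replicate 2 in these orders may thus depend on the correction. In these Epi-like cells the summed ExE-Mech markers were 5.44 to 5.76 CPM in wild type and 26.7 to 35.5 CPM in the mutant, with up to 5 and 3 of the 8 at 0, and the trophoblast markers 50.2 to 58.0 CPM and 285 to 299 CPM, with up to 3 and 1 of the 10 at 0. Their part in the collagen levels was not tested.

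**Figure D4:**
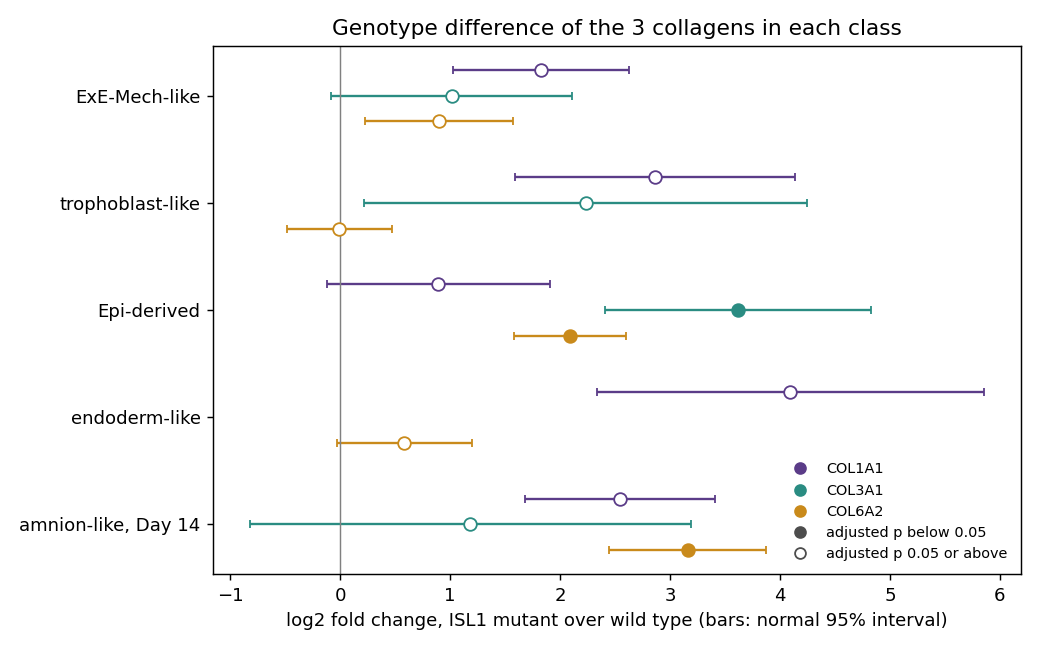
Fitted log2 fold change, ISL1 mutant over wild type, of the 3 collagens in each class, with bars of the normal 95% interval and filled points where the adjusted p is below 0.05. COL3A1 and COL6A2 in Epi-derived cells and COL6A2 in amnion-like cells are filled. COL3A1 in endoderm-like cells is left out, because the wild-type sums held 2 UMIs or fewer at each day. COL1A1 in endoderm-like cells is shown, although its wild-type Day 12 sum held 1 UMI.

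Amnion-like cells, which resemble the epithelium that encloses the amniotic cavity and in which ISL1 is expressed, showed the COL6A2 difference within a narrower class. COL6A2 stood at 37.3 and 22.1 CPM in the wild-type Day 14 libraries and at 301 and 195 CPM in the mutant ones, from 38, 36, 205 and 55 cells. COL1A1 stood at 39.9 and 20.9 CPM in wild type and at 211 and 120 CPM in the mutant. COL3A1 stood at 72.8 and 0 CPM in wild type and at 53.4 and 107 CPM in the mutant, and the 82 UMIs of the first wild-type library came from 5 of its 38 cells. The groups did not overlap for COL6A2 and COL1A1, 2 of 3 members against 24% of 10518 genes with both mutant libraries on top, and they overlapped for COL3A1.

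COL6A2 passed the Day 14 test in amnion-like cells, with a log2 difference of 3.16, higher in the mutant (standard error 0.36, edgeR adjusted p = 0.0255). COL1A1 was 2.54 higher (standard error 0.44, edgeR adjusted p = 0.0512) and passed with the batch number as a term (edgeR adjusted p = 0.0476), on uncorrected counts (0.0483), without the filter on low counts (8.80e-09) and by DESeq2 (3.77e-04). COL3A1 differed by 1.18 (standard error 1.02, edgeR adjusted p = 0.538), a value that ran from 0.21 without wild-type replicate 2 to 10.02 without wild-type replicate 1, where the wild-type library that remained held 0 COL3A1 UMIs. In all, 37 of 9253 genes passed (0.4%), 30 of them higher in the mutant (0.324%), and 83 passed with the batch number as a term. The COL6A2 call was lost without mutant replicate 1 (edgeR adjusted p = 0.172) or mutant replicate 2 (0.0551), with 0 and 7 genes passing, and with clusters built from all libraries of a day (0.0807). Leaving out wild-type replicate 1 brought COL1A1 (edgeR adjusted p = 0.00561) and COL3A1 (0.00372) past the threshold with 1096 genes, and leaving out wild-type replicate 2 brought COL1A1 past it (0.0449) with 156 genes. COL3A1 also passed without the filter on low counts (edgeR adjusted p = 0.0450). The summed ExE-Mech markers in amnion-like cells were 266 to 276 CPM in wild type, with up to 4 of 8 markers at 0, and 362 to 458 CPM in the mutant, with none at 0. The 10 trophoblast markers summed to 171 to 226 CPM in wild type and to 746 to 1192 CPM in the mutant. The endoderm markers were also higher in the mutant, at 33.2 to 41.7 CPM in wild type and 70.8 to 93.9 CPM in the mutant. The Epi markers were lower in it, at 254 to 1549 CPM and 92.5 to 147 CPM. The part of these lists in the difference was not tested.

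In endoderm-like cells, COL1A1 and COL3A1 stood far higher in both mutant Day 14 libraries than in the wild-type ones, where COL3A1 was nearly absent. COL1A1 stood at 13.6 and 14.1 CPM in the wild-type Day 14 libraries and at 103 and 492 CPM in the mutant ones. COL3A1 gave 2 and 0 UMIs in the wild-type libraries and 67 and 113 UMIs, or 83.3 and 772 CPM, in the mutant ones. The highest values, in mutant replicate 2, came from 10 cells. These were split off from a mixed cluster whose other parts were 42 cells named ExE-Mech-like and 37 cells left unnamed, and their endoderm markers summed to 42843 CPM, the lowest of the 10 libraries, against 84519 CPM in replicate 1. COL6A2 stood at 56.3 and 103 CPM in wild type and at 123 and 266 CPM in the mutant. All 3 members had both mutant libraries on top, against 17.8% of 9958 genes. Few endoderm-like cells held COL1A1 or COL3A1. Over the 5 mutant libraries of all days, the share of cells with a COL3A1 UMI had a median of 7.34% and reached 40%. For COL1A1 the median was 9.17% and the highest 60%. Over the 5 wild-type libraries the shares reached 4.26% for COL3A1 and 12.5% for COL1A1. The levels of these 2 genes thus rested on part of the class.

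None of the 3 passed the test in endoderm-like cells, where 0 of 9592 genes (0%) passed by edgeR, against 970 at an unadjusted p under 0.05 and 55 by DESeq2. COL1A1 was 4.09 higher in the mutant on the log2 scale over both days (standard error 0.90, edgeR adjusted p = 0.145). It passed by DESeq2 (adjusted p = 0.00558). Its Day 12 part rested on 1 COL1A1 UMI, or 1.15 CPM, in the 10 endoderm-like cells of wild-type Day 12 replicate 1. The mutant Day 12 libraries stood at 31.9 and 0 CPM. COL6A2 differed by 0.58 (standard error 0.31, edgeR adjusted p = 0.557). Without mutant Day 12 replicate 1 the COL1A1 difference was 0.30 (edgeR adjusted p = 0.990), since the 25 endoderm-like cells of the other mutant Day 12 library held 0 COL1A1 UMIs. Over the libraries left out in turn, COL6A2 ran from 0.35 to 1.18. Without wild-type Day 12 replicate 1, no wild-type library was left at Day 12, and the difference was that at Day 14 alone. COL6A2 changed sign with clusters built from all libraries of a day and at Day 12 alone (-0.037). For COL3A1 the edgeR adjusted p was 0.0958, and it was 0.0237 without mutant Day 14 replicate 1, where 1 gene passed. COL3A1 also passed with clusters built from all libraries of a day (edgeR adjusted p = 0.0292) and, with COL1A1, without the filter on low counts (4.74e-26 and 6.58e-13). With the batch number as a term 7 genes passed. The ranges of the summed ExE-Mech markers overlapped at Day 14, at 419 to 696 CPM in wild type and 492 to 639 CPM in the mutant, with up to 3 of the 8 at 0 in wild type and none in the mutant. Other lists did not overlap there, with the summed Epi-derived markers at 379 to 662 CPM in wild type and 904 to 1277 CPM in the mutant, the amnion markers at 34.0 to 42.4 CPM and 68.3 to 77.1 CPM, and the mesoderm markers lower in the mutant, at 1101 to 1202 CPM and 828 to 990 CPM. Their part in the collagen levels was not tested.

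In trophoblast-like cells, the outer lineage that forms the placenta, COL1A1 and COL3A1 were low and higher in the mutant Day 14 libraries, and COL6A2 did not follow them. COL1A1 stood at 1.53 and 2.64 CPM in wild type and at 17.9 and 16.7 CPM in the mutant. With mixed cells left out, the median COL1A1 level of trophoblast-like cells over all 11 libraries was 0.585 CPM in place of 1.53 CPM. COL3A1 stood at 0.811 and 8.89 CPM in wild type and at 18.4 and 22.7 CPM in the mutant. COL6A2 stood at 10.4 and 22.2 CPM in wild type and at 20.1 and 23.6 CPM in the mutant, so its groups overlapped. That left 2 of 3 members with both mutant libraries on top, against 26% of 15865 genes.

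None of the 3 passed in trophoblast-like cells, where 10 of 15083 genes did (0.0663%). COL1A1 was 2.86 higher in the mutant as a log2 difference (standard error 0.65, edgeR adjusted p = 0.0968), COL3A1 differed by 2.23 (edgeR adjusted p = 0.292) and COL6A2 by -0.01 (edgeR adjusted p = 1.00). Without wild-type Day 12 replicate 2, which left a Day 12 wild-type library with 1 COL1A1 and 0 COL3A1 UMIs, COL1A1 was 5.01 higher and COL3A1 differed by 6.80 (edgeR adjusted p = 0.106), and without wild-type Day 14 replicate 2 COL3A1 differed by 3.42. Between Day 12 and Day 14 the COL6A2 difference was -0.50 at Day 12 and 0.48 at Day 14, and the fold within a replicate number was 0.732 and 0.727 at Day 12 and 1.93 and 1.07 at Day 14. COL1A1 passed by DESeq2 (adjusted p = 3.01e-04) and without wild-type Day 12 replicate 2 (edgeR adjusted p = 0.0117), and 3 genes passed in all with the batch number as a term. The count of genes was 899 without wild-type Day 14 replicate 1, 17 without wild-type Day 12 replicate 2 and 0 to 4 without wild-type Day 12 replicate 1 or any of the mutant libraries. The summed ExE-Mech markers in trophoblast-like cells were 22.9 to 51.6 CPM in wild type and 36.4 to 65.1 CPM in the mutant at Day 14, with none of the 8 at 0, and the endoderm markers were 177 to 295 CPM and 324 to 488 CPM; the part of either list was not tested.

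No member's genotype difference was shown to change between Day 12 and Day 14 in the 4 classes in which this was tested. By this edgeR test 0 of 12841 genes passed in ExE-Mech-like cells and 1 of 15083 in trophoblast-like cells. In Epi-derived cells 0 of 12402 passed, and in endoderm-like cells 0 of 9592. A test that called almost no gene does not show that the members stayed unchanged. The smallest p was that of COL6A2 in Epi-derived cells, whose log2 difference was 0.82 at Day 12 and 3.36 at Day 14. This was a change of 2.54 (standard error 0.51, edgeR unadjusted p = 0.000573, adjusted p = 0.398). COL1A1 in Epi-derived cells changed by 2.85 (standard error 1.04, edgeR adjusted p = 0.544), from -0.53 to 2.32.

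In wild-type embryos from Day 10 to Day 14, COL3A1 appeared in classes in which it had been at 0. In trophoblast-like cells it gave 0 UMIs at Day 10 and 329 UMIs at Day 14, when its level was 0.811 and 8.89 CPM. COL1A1 in trophoblast-like cells was 0.135 and 0.186 CPM in the Day 10 libraries, against 1.53 and 2.64 CPM in the Day 14 ones. In Epi-derived cells COL3A1 gave 0 UMIs at Day 10 and 127 UMIs at Day 14, or 4.52 and 2.99 CPM in the Day 14 libraries. Of the 127 UMIs, 82 lay in the 38 amnion-like cells of Day 14 replicate 1, of which 13.2% had a COL3A1 UMI. Epi-like cells held 8 and 2 UMIs in the Day 14 libraries. The Day 10 wild-type libraries held 0 amnion-like cells, so the make-up of the class differed between the days. COL1A1 in Epi-derived cells was 15.6 and 13.3 CPM in the Day 10 libraries, against 15.1 and 29.2 CPM in the Day 14 ones, and COL6A2 was 18.7 and 11.7 CPM, against 12.0 and 11.6 CPM. The appearance of COL3A1 thus ran alongside that of ExE-Mech-like cells, which were 0 in both Day 10 wild-type libraries and 164 and 339 in the Day 14 ones.

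None of the 3 passed the test of Day 14 against Day 10. In trophoblast-like cells the edgeR adjusted p was 0.0650 for COL1A1, 0.0695 for COL3A1 and 0.826 for COL6A2, while 1655 of 15083 genes passed (11%). In Epi-derived cells the edgeR adjusted p was 0.762 for COL1A1, 0.0529 for COL3A1 and 0.688 for COL6A2, while 127 of 12402 genes passed (1.02%). By DESeq2, COL1A1 in trophoblast-like cells (adjusted p = 0.00169) and COL3A1 in both classes (0.00191 and 0.00108) passed. Without the filter on low counts the same 3 passed by edgeR (adjusted p = 0.0424, 0.0398 and 9.42e-11). Among trophoblast-like cells, COL1A1 also passed on uncorrected counts (edgeR adjusted p = 0.0266) and COL3A1 with clusters built from all libraries of a day (edgeR adjusted p = 0.0445). Leaving out a wild-type library cut the count in Epi-derived cells to 2 and 32 for the Day 10 replicates 1 and 2 and to 1 and 42 for the Day 14 replicates, and the count in trophoblast-like cells to 682 and 200 for the Day 10 replicates and to 562 for Day 14 replicate 1.

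Of 40 other collagen chain genes, 10 had an identifier, and they fell into several patterns over the classes. COL6A1 and COL6A3, the partners of COL6A2 in type VI collagen, and COL5A2, a chain of the fibrillar type V collagen that joins type I fibres, were highest in ExE-Mech-like cells. COL6A1 had a median of 148 CPM there and 10.5 CPM in endoderm-like cells, COL6A3 of 218 CPM and 0 CPM, and COL5A2 of 115 CPM and 1.27 CPM. COL4A1, a chain of basement membrane collagen, had a median of 388 CPM in ExE-Mech-like cells and 256 CPM in the endoderm-like class. Its partner COL4A2 had medians of 468 and 303 CPM in these classes. COL9A2, a chain of a collagen that sits on fibres, went the other way, with a median of 0.162 CPM in ExE-Mech-like and 232 CPM in endoderm-like cells. COL2A1, the cartilage fibrillar collagen, was highest in amnion-like cells, with a median of 23.7 CPM against 0.398 CPM in ExE-Mech-like cells.

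**Figure D5:**
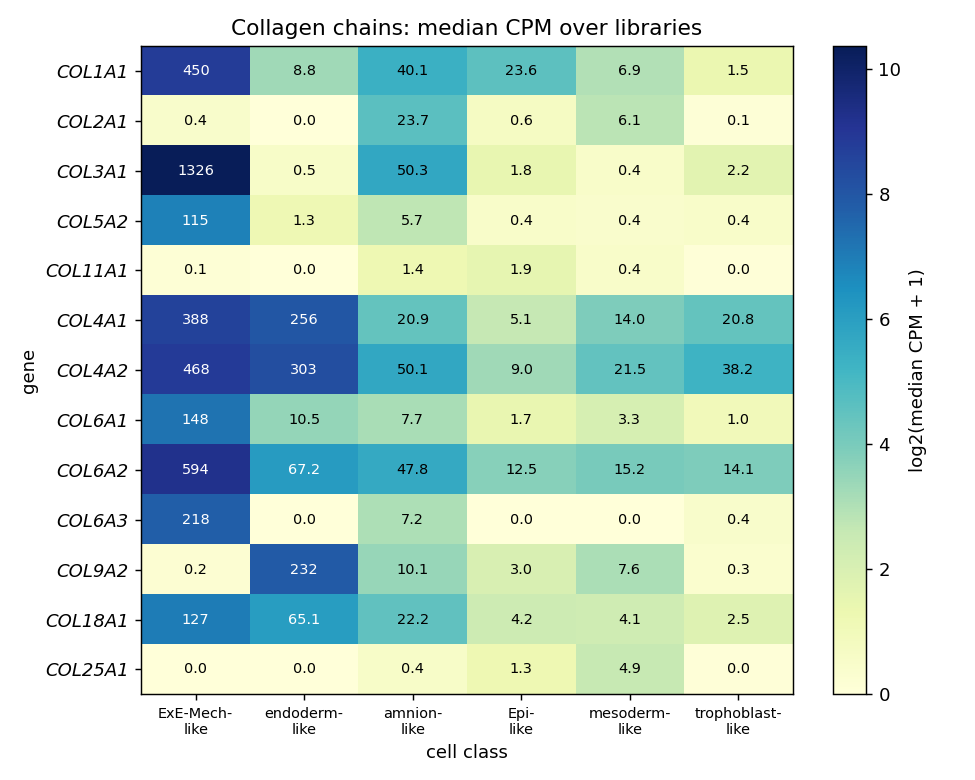
Median CPM over libraries of the 13 collagen chain genes with an identifier, by cell class, written in each cell and coloured as log2(median CPM + 1). The 3 genes described here and COL5A2, COL6A1 and COL6A3 have their highest median in ExE-Mech-like cells, and COL9A2 in endoderm-like cells.

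Of the 10 other collagen chains tested in Epi-derived cells, 4 passed and all 4 were higher in the mutant, against 4.08% of all genes that passed and 2.88% that passed and were higher. The median log2 difference was 1.85 over the 10 chains and 0.02 over all genes. Identifiers came from the study's own lists of genes that mark cell types or differ between groups in these data. The 10 chains were thus drawn from genes already found to differ, and their share cannot be set evenly against that of all genes. None of the 10 passed at Day 12 alone, nor without wild-type Day 14 replicate 1 or 2, mutant Day 12 replicate 2 or mutant Day 14 replicate 1 or 2, and 2 passed with mixed cells left out or without wild-type Day 12 replicate 1. COL5A2 averaged 21.3 CPM in the mutant and 0.903 CPM in wild type at Day 14 (edgeR adjusted p = 0.0206 over both days), and COL6A3 15.1 CPM and 0.247 CPM (edgeR adjusted p = 0.0296). COL11A1, another fibrillar chain, averaged 23.6 CPM and 0.456 CPM (edgeR adjusted p = 0.0449), and COL4A1 22.0 CPM and 7.92 CPM (edgeR adjusted p = 0.0337). COL6A1 averaged 9.73 CPM and 1.53 CPM and did not pass (edgeR adjusted p = 0.0682). As few as 13 UMIs, those of COL6A3, stood behind these wild-type Day 14 values.

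Of 32 listed genes whose products make and join collagen, 12 had an identifier, and 6 of these passed in Epi-derived cells, all 6 higher in the mutant, with a median log2 difference of 1.18 over the 12. Over all genes 4.08% passed, 2.88% passed and were higher, and the median was 0.02. The 12 genes had an identifier because the study's lists of differing genes held them, so these shares are not compared evenly. None passed at Day 12 alone, nor without wild-type Day 14 replicate 2, mutant Day 12 replicate 2 or either mutant Day 14 library, and 3 passed without wild-type Day 12 replicate 2 or wild-type Day 14 replicate 1. With mixed cells left out, 4 of 11 passed. LOX, an enzyme that cross-links collagen, stood at 0.228 and 0.374 CPM in the wild-type Day 14 libraries and at 126 and 30.3 CPM in the mutant ones, with 6 UMIs and 1 UMI behind the wild-type values. P4HA1, a prolyl hydroxylase subunit needed for stable collagen helices, stood at 171 and 72.6 CPM in wild type and at 619 and 911 CPM in the mutant. P4HA2, its relative, averaged 17.6 CPM and 130 CPM, and CTHRC1, a secreted protein with a collagen repeat, 26.4 CPM and 317 CPM. The edgeR adjusted p was 0.0337 for LOX, 0.0278 for P4HA1, 0.0206 for P4HA2 and 0.0337 for CTHRC1. DDR1, a collagen receptor and the only one of 7 with an identifier, averaged 5.70 CPM in wild type and 25.2 CPM in the mutant at Day 14 (edgeR adjusted p = 0.0340).

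In amnion-like cells at Day 14, COL5A2 passed among 9 chains tested and LOX among 11 collagen-making genes, against 0.4% of all genes that passed and 0.324% that passed and were higher. Here and below, the listed genes were again drawn from the study's lists of differing genes, so the shares are not compared evenly. COL5A2 stood at 5.33 and 2.46 CPM in wild type and at 54.7 and 40.9 CPM in the mutant (edgeR adjusted p = 0.0394). LOX gave 0 UMIs in both wild-type libraries and stood at 267 and 62.9 CPM in the mutant ones (edgeR adjusted p = 0.0394). No chain of the list passed without mutant replicate 1 or 2 or with clusters built from all libraries of a day, and of the collagen-making genes 0, 1 and 0 did; without wild-type replicate 1, 7 of 9 chains and 9 of 11 collagen-making genes passed, all higher in the mutant, in a fit in which 1096 of 9316 genes passed, 613 of them higher. COL6A1, at 19.1 CPM in the mutant and 1.95 CPM in wild type, did not pass (edgeR adjusted p = 0.0616), nor did COL6A3 (edgeR adjusted p = 0.106). In ExE-Mech-like, endoderm-like and trophoblast-like cells no listed chain, collagen-making gene or receptor passed the genotype test by edgeR, where 0, 0 and 10 of all genes passed. In wild-type trophoblast-like cells from Day 10 to Day 14, 1 of 9 chains and 2 of 12 collagen-making genes passed, against 11% of all genes. COL18A1, a basement membrane collagen, fell from 24.5 CPM to 1.76 CPM (edgeR adjusted p = 0.00493), and LOX, at 1 UMI at Day 10 and 95 UMIs at Day 14, and PPIB, a chaperone of collagen folding, at 391 CPM and 1027 CPM, rose (edgeR adjusted p = 0.0242 and 0.0209).

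The 5 genes whose levels ran most like those of each member were sought over the 40 library and class sums. The measure was Pearson's r of log2(CPM + 1), given as a description. Of 10510 genes at 10 CPM or more in at least 1 sum, only the 962 with a symbol were ranked. Their symbols came from the study's lists of marker and differing genes, so genes without a symbol may lie closer. For COL1A1 the closest were TGFBI, a secreted matrix protein, at 0.89, OLFML3 at 0.87, COL6A3 at 0.87, COL3A1 at 0.87 and EMP3 at 0.87. For COL3A1 they were POSTN, the matrix protein periostin, at 0.96, COL6A3 at 0.96, MMP28, a matrix metalloproteinase, at 0.96, COL5A2 at 0.95 and HGF, which was among the markers that named ExE-Mech-like cells, at 0.93. For COL6A2 they were COL6A1 at 0.96, F5, a coagulation factor, at 0.95, COL5A2 at 0.92, EGFLAM at 0.91 and ITIH5 at 0.91. The sums share libraries and classes, and the split between ExE-Mech-like cells and the rest enters each of these values.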

How the data were processed

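RNA of single cells from 11 libraries, prepared with a 3′ droplet kit, was analysed. Reads were aligned and counted by the authors in Cell Ranger 3.1.0 against the Macaca fascicularis Ensembl annotation, filtered cells on mitochondrial share, and removed ambient RNA with SoupX. The deposited corrected values are expected counts, whole UMIs per gene and cell without scaling, and the deposited uncorrected values are counts of the same kind, used as an alternative. Symbols for 1017 of 19367 identifiers were taken from the study's tables, which leave most collagen genes without one. Those tables list genes that the study found to mark cell types or to differ between states or genotypes in these data. The members and the listed genes with an identifier were thus drawn from such genes.

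No deposited table gave cell types. Cells were clustered within each library (2000 features, 30 principal components, 20 neighbours, leidenalg 0.10.2, resolution 0.8) with no gene of the collagen lists among the features. Clusters were named from marker lists in the study's tables, with at least 3 markers in at least 25% of cells. A cluster with markers of a second lineage was reclustered, and stayed unnamed where it remained mixed. The 10 leading genes of each cluster, by fold over the cells of the library with another name, were then looked at. A cluster lost its name where these held more markers of another class than of its own. It also lost its name where it had a low UMI count and no marker of its own among them. This ranking took in all genes, collagens included. No doublet caller was run. This naming rule was settled after the marker levels, and before any collagen level, had been looked at.

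UMIs were summed per library and class, with at least 5 cells. The sums were tested with edgeR 4.0.16 (R 4.3.3) by the quasi-likelihood F test, two-sided, with TMM scaling, filterByExpr, a mean for each genotype and day, and Benjamini-Hochberg adjustment over all genes tested at 0.05. The corrected counts were whole numbers and entered unchanged. The genotype difference was the mean of those at Day 12 and Day 14, and in amnion-like cells that at Day 14. Where leaving out a library left no library of a genotype at a day, only the other day was used. The script was tested on simulated data. DESeq2 1.42.0, RLE scaling, no filter, uncorrected counts, clusters from all libraries of a day, leaving out mixed cells, each library in turn, and each day alone were tried. The members, the gene lists and the comparisons were chosen with earlier results of these data known. The named genes were the 3 members, the partners of their chains, up to 4 called genes of each list by size of change, and the 5 genes most like each member.

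The labels give a batch number for each library, and whether same-numbered libraries of the 2 genotypes share a day of work is not stated. Deviations from the group means of same-numbered libraries correlated between -0.19 and 0.32 over genes. A fit with the number as a term is given where it changed a call. Replicates were separate batches of embryos, and p-values measure the spread between them. Depth, given as ranges over libraries in the text, limits low genes to counts of a few UMIs. Limits for a count of 0 use 3 counts and cover counting error alone.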

Additional observations from a re-analysis of the deposited data

Results flagged for a closer look

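COL6A2 at Day 12 went opposite ways in 2 classes. In trophoblast-like cells both mutant libraries, at 9.80 and 12.4 CPM, lay below both wild-type libraries, at 13.4 and 17.0 CPM, a log2 ratio of the means of -0.46, and 18.8% of 15627 genes showed that order. In Epi-derived cells both mutant libraries, at 17.6 and 29.8 CPM, lay above both wild-type libraries, at 12.6 and 13.4 CPM, a log2 ratio of 0.87, and 23.6% of 13192 genes showed that order. The log2 ratios were 1.32 apart. This difference between the classes was not tested, and 1 of the wild-type Epi-derived values came from 14 cells.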

How the results depend on the processing

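Among the 295 values of the 3 genes under an alternative setting, 242 kept their direction and their side of the threshold, 27 passed that had not, 12 no longer passed and 14 changed sign. COL6A2 in trophoblast-like cells (-0.01 on the log2 scale) became 0.00093 without a filter, 0.43 on uncorrected counts, 0.48 at Day 14 alone and between 0.04 and 0.25 without wild-type Day 12 replicate 2, wild-type Day 14 replicate 2, mutant Day 12 replicate 1 (0.08) or mutant Day 14 replicate 1 (0.07), in a range from -0.20 to 0.25 over all libraries left out. COL6A2 in endoderm-like cells (0.58) became -0.028 with clusters from all libraries of a day and -0.037 at Day 12 alone, COL1A1 in Epi-derived cells (0.89) -0.53 at Day 12 alone, COL6A2 in wild-type trophoblast-like cells from Day 10 to Day 14 (0.15) -0.0053 with mixed cells left out, -0.14 without Day 10 replicate 2 and -0.36 without Day 14 replicate 2 (to 0.54 without Day 14 replicate 1), and COL6A2 in wild-type Epi-derived cells (-0.35) 0.049 without Day 10 replicate 1 (to -0.67 without Day 10 replicate 2). The cause was not tested. The median COL1A1 level in trophoblast-like cells moved from 1.53 CPM to 0.585 CPM with mixed cells left out.

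Counts of genes past the threshold moved more. In ExE-Mech-like cells (0 of 12841) they were 473 by DESeq2, 284 without a filter, 5 with the batch number as a replicate block, 2 with mixed cells left out and 12 at Day 14 alone, and 0 to 12 with a library left out, above 0 without wild-type Day 12 replicate 2 (11), wild-type Day 14 replicate 1 (4), mutant Day 12 replicate 1 (12) or mutant Day 14 replicate 2 (1). In trophoblast-like cells (10) they were 1200 by DESeq2, 2 with RLE scaling, 147 without a filter, 3 with the replicate block, 3 on uncorrected counts, 0 at Day 14 alone, 1 at Day 12 alone and 0 to 899 with a library left out. In Epi-derived cells (506) they were 1143 by DESeq2, 1573 without a filter, 1 at Day 12 alone and 16 to 648 with a library left out. In endoderm-like cells (0) they were 55 by DESeq2, 265 without a filter, 7 with the replicate block, 4 with clusters from all libraries of a day, 16 with mixed cells left out and 0 to 10 with a library left out, the highest without mutant Day 12 replicate 1. In amnion-like cells (37) they were 317 by DESeq2, 1052 without a filter, 83 with the replicate block, 57 on uncorrected counts, 2 with clusters from all libraries of a day, 385 with mixed cells left out and 0 to 1096 with a library left out. From Day 10 to Day 14 in wild type they were 2758 by DESeq2 and 200 to 1793 with a library left out in trophoblast-like cells (1655), and 493 by DESeq2, 943 without a filter and 1 to 42 with a library left out in Epi-derived cells (127). Apart from COL1A1 in amnion-like cells, the replicate block changed no call of the 3 genes. Where leaving out a library left 1 in a group, that library was taken to vary like those of the other groups. With 2 libraries in a group, and as few as 10 cells in a class of a library, differences of the low genes were measured from few UMIs.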
